A study of Mus musculus with 36 samples.

Results

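The response of macroH2A double-knockout (dKO) immortalized dermal fibroblasts (iDFs) to 30 min of serum was measured by RNA-seq in 4 of the 36 libraries of the series. They were chosen by their labels alone: 2 libraries at 0 min, from confluent cells held for 24 h in 0.5% serum, and 2 libraries at 30 min, from cells treated in the same way and then given 10% serum. dKO cells lack macroH2A1 and macroH2A2, histone variants with a large C-terminal macrodomain that are encoded by H2afy and H2afy2, and they grew in DMEM with 10% FBS. The iDFs were derived from the skin of animals that carried no tumour, and all libraries were labelled male. How the cells were immortalized, whether dKO stands for 1 line or several, and which part of each allele is deleted were not given in the sources used here. The 4 wild-type (WT) libraries of the same design, 2 at each time, share the model fit and serve where a difference from WT is stated.

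Serum given to starved fibroblasts carries growth factors and lysophospholipids that act within minutes. ERK signalling activates ternary complex factors bound beside SRF, changes in actin release the SRF cofactors MRTF-A and MRTF-B, and CREB, NF-kB and YAP are activated by other routes. The genes transcribed at once, without new protein, are the immediate-early genes. They encode transcription factors of the FOS, JUN and EGR families, feedback inhibitors of kinases, regulators of mRNA decay and secreted factors, and their mRNAs are mostly short-lived. CArG boxes bind SRF, the palindrome TGACGTCA binds CREB and its relatives, and NF-kB dimers bind a short G- and C-flanked site.

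Promoters of 8 raised genes are printed here because each holds, within 250 bases before the RefSeq start, a match to one of these 3 sites, which is set in capitals. They come from RefSeq on GRCm38.p6 and read 5′ to 3′ on the strand of the gene. The first 3 hold CArG boxes, the next 2 hold TGACGTCA, and the last 3 hold NF-kB sites.
Zfp36, chr7:28379229-28379478, minus strand: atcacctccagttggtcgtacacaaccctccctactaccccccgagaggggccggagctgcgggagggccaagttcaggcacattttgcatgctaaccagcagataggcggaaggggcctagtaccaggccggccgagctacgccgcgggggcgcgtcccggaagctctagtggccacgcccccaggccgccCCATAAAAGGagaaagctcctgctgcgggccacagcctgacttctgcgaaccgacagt
Dusp5, chr19:53528895-53529144, plus strand: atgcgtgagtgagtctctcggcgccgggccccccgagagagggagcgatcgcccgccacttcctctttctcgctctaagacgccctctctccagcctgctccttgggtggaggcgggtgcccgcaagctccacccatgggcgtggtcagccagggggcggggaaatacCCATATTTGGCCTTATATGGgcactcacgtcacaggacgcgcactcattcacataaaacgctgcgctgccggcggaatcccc
Actg1, chr11:120348496-120348745, minus strand: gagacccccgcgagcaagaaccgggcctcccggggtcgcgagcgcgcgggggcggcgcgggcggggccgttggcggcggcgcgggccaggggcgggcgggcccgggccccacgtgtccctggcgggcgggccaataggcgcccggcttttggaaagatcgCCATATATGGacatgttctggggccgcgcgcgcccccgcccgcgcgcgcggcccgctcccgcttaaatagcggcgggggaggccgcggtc
Dusp1, chr17:26508473-26508722, minus strand: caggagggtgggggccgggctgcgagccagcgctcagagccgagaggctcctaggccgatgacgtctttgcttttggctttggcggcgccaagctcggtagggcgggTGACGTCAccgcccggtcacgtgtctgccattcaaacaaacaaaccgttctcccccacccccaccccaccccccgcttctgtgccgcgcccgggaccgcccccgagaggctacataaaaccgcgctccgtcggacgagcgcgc
Btg2, chr1:134079156-134079405, minus strand: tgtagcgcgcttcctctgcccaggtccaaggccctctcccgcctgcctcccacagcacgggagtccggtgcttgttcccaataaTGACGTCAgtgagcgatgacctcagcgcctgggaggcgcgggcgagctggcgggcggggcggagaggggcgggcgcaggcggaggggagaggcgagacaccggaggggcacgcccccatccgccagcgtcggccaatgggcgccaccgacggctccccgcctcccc
Nfkbia, chr12:55492648-55492897, minus strand: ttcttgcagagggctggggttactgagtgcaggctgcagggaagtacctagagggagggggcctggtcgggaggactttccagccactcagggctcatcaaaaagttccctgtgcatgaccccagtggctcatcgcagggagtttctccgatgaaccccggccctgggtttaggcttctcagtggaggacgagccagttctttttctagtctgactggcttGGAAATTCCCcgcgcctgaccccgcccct
Tnfaip3, chr10:19015411-19015660, minus strand: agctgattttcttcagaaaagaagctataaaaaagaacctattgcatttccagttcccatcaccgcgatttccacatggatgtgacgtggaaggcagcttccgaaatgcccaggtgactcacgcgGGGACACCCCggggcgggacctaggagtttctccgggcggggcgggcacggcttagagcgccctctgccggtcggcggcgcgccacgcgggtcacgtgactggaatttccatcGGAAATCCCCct
Cxcl1, chr5:90890995-90891244, plus strand: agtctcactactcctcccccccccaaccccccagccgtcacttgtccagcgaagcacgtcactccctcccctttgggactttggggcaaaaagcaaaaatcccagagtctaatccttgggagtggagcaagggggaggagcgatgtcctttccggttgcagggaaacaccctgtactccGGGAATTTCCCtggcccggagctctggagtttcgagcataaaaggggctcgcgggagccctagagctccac
The CArG box of Zfp36 begins 58 bases before the start, those of Dusp5 adjoin each other at 82 and 72 bases, and that of Actg1 begins at 90 bases. TGACGTCA begins 143 bases before the start of Dusp1 and 166 bases before that of Btg2. The NF-kB site of Nfkbia begins at 29 bases, those of Tnfaip3 at 125 and 12 bases, and the 2 matches of Cxcl1, at 71 and 70 bases, overlap. Over all 32851 promoters of the RefSeq table, searched over the same length and on both strands, 1.47% held a CArG box, 1.55% held TGACGTCA and 3.90% held an NF-kB site. The table held a promoter for 76.5% of the raised and 74.8% of the lowered protein-coding genes, under the 80% set as the minimum, so shares of motifs were not compared between gene groups. These 8 were picked after the matches were seen. A match is a description of letters and not evidence of binding.

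Between 25518142 and 30960463 estimated counts per dKO library fell on genes, against 22560402 to 25414919 in the WT libraries. H2afy and H2afy2, which check the genotype as far as the unknown deletions allow, were not at 0 in the dKO libraries. H2afy stood at 65.2 and 61.0 CPM (counts as a share of the library's total, scaled by edgeR's TMM factors) in the dKO libraries at 0 min against 91.8 and 94.3 CPM in WT (log2 difference −0.56, adjusted p = 4.20e-05), and H2afy2 at 31.2 and 31.3 CPM against 51.2 and 49.4 CPM (−0.69, adjusted p = 1.91e-05). RNA from outside a deleted part would still be counted, so these values do not check the protein. All 13 dermal fibroblast markers were above 1 TPM (a level corrected for transcript length) in dKO cells and none was called, with a summed level of 18526 to 18703 TPM at 0 min and 18400 to 19103 TPM at 30 min. The summed markers of keratinocytes, melanocytes, immune, endothelial and skeletal muscle cells stayed between 1.19 and 10.4 TPM in every dKO library. Krt5, Krt14, Cd3e, Adgre1, Tyr, Dct and Myod1 were among those at 0 in all 4. Other members of these lists had a mean above 1 TPM over the dKO libraries: Krt10, Mlana, Mitf, Cd68 and Pecam1. The 1 marker called among these lists was the muscle actin Acta1, itself an SRF target. In bulk RNA, fewer cells of a type and less RNA per cell cannot be told apart.

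Serum raised 322 of 15047 genes tested (2.14%) and lowered 171 (1.14%) in dKO iDFs within 30 min, at an adjusted p under 0.05 and a log2 fold change beyond 0.75. The median log2 fold change of all genes tested was −0.004, that of the raised genes 1.57 and that of the lowered genes −1.07. Among the raised genes 117 changed by more than 2 on the log2 scale and 34 by more than 4. Raised genes took 2.20% and 2.03% of all counts in the libraries at 0 min and 6.36% and 6.83% at 30 min, whereas lowered genes took 0.122% and 0.129% before and 0.0618% and 0.0511% after, so the 2 sides of the response differed widely in their share of the mRNA. The groups did not overlap for any called gene, as held for 51.5% of all genes tested with 2 libraries a group. Without dKO 0 min replicate 2 the counts were 174 raised and 48 lowered. The lowered side also fell to 83 without dKO 0 min replicate 1, to 75 without dKO 30 min replicate 2, and to 113 or 112 without WT 0 min replicate 1 or 2. Raised genes made up 65.3% of the calls, and 77.8% (284 raised, 81 lowered) when the counts were corrected for transcript length.

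**Figure D1:**
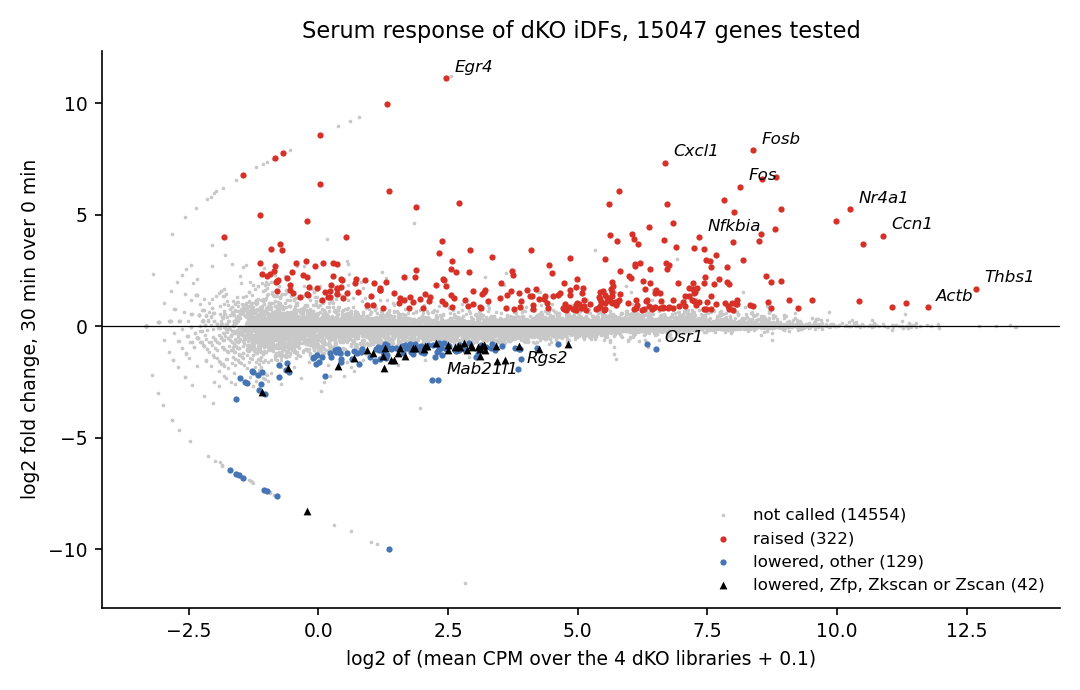
Each point is 1 of 15047 genes, with the log2 of its mean CPM plus 0.1 over the 4 dKO libraries on the x axis and the log2 fold change at 30 min over 0 min on the y axis. Raised genes (322, red) spanned the whole range of levels and included the abundant Thbs1 and Actb, while lowered genes (129 blue, and 42 black triangles for zinc-finger symbols) lay mainly at low CPM. Points on the 2 outer arcs have 0 counts in one group, so that their fold change depends on the prior count.

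FOS and JUN proteins form the AP-1 dimers, and 9 of the 14 AP-1 and small Maf genes rose (median log2 fold change of the 14, 2.24), with 5 not called (5 rose without dKO 0 min replicate 1 or 2). Fosb had 2.96 and 2.56 CPM at 0 min and 744 and 580.5 CPM at 30 min (log2 fold change 7.90 ± 0.26 SE, adjusted p = 0.000105). Fos had 9.30 and 4.82 CPM before and 771 and 332 CPM after (6.27 ± 0.86, adjusted p = 0.0227), so its libraries differed by more than those of Fosb at either time. The call on Fos was lost without any single dKO library (adjusted p from 0.0530 to 0.157) and without either WT 0 min library (0.0629 and 0.0628). Jun rose from 67.4 and 61.5 CPM to 422 and 392 CPM (2.66 ± 0.08, adjusted p = 3.89e-07), from a far higher level and by a smaller fold. Atf3, a stress-induced repressor of the same superfamily, rose from 8.57 and 8.93 CPM to 228 and 211 CPM (4.65 ± 0.12), and Mafk, a small Maf protein without a transactivation domain, rose by 1.52 ± 0.14. Junb and Fosl1, named after their values were seen, rose by 4.14 ± 0.26 and 4.10 ± 0.52, the latter losing its call without dKO 0 min replicate 1 (adjusted p = 0.111), dKO 0 min replicate 2 (0.135) or either WT 0 min replicate (0.0517 and 0.0513).

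EGR zinc-finger factors and NR4A orphan nuclear receptors rose with them. Of the 19 EGR, NR4A and KLF genes with their corepressors, 12 rose and 7 were not called (median 1.18). Egr4 had no count in either library at 0 min and 11.9 and 9.78 CPM at 30 min, at least 107-fold above a floor of 3 counts per library. Egr3 rose from 7.42 and 7.67 CPM to 703 and 778 CPM (6.62 ± 0.07, adjusted p = 1.57e-10), with replicates close together at both times. Egr2 rose from 9.08 and 8.57 CPM to 533 and 357 CPM (5.66 ± 0.36). Egr1, the best known of the family and named here after its values were seen, had 294 and 129 CPM at 0 min and 3318 and 2083 CPM at 30 min (3.67 ± 0.65, adjusted p = 0.0414). Its level before serum was already high and uneven, and its call was lost when any of the 8 iDF libraries was left out (adjusted p from 0.0740 to 0.175). Nr4a1 rose from 51.2 and 73.6 CPM to 2281 and 2455 CPM (5.25 ± 0.28), and Nr4a3 from 1.62 and 2.66 CPM to 80.9 and 108 CPM (5.48 ± 0.34). The Krüppel-like factors moved less: Klf2 rose by 1.52 ± 0.08 and Klf4 by 0.84 ± 0.07.

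**Figure D2:**
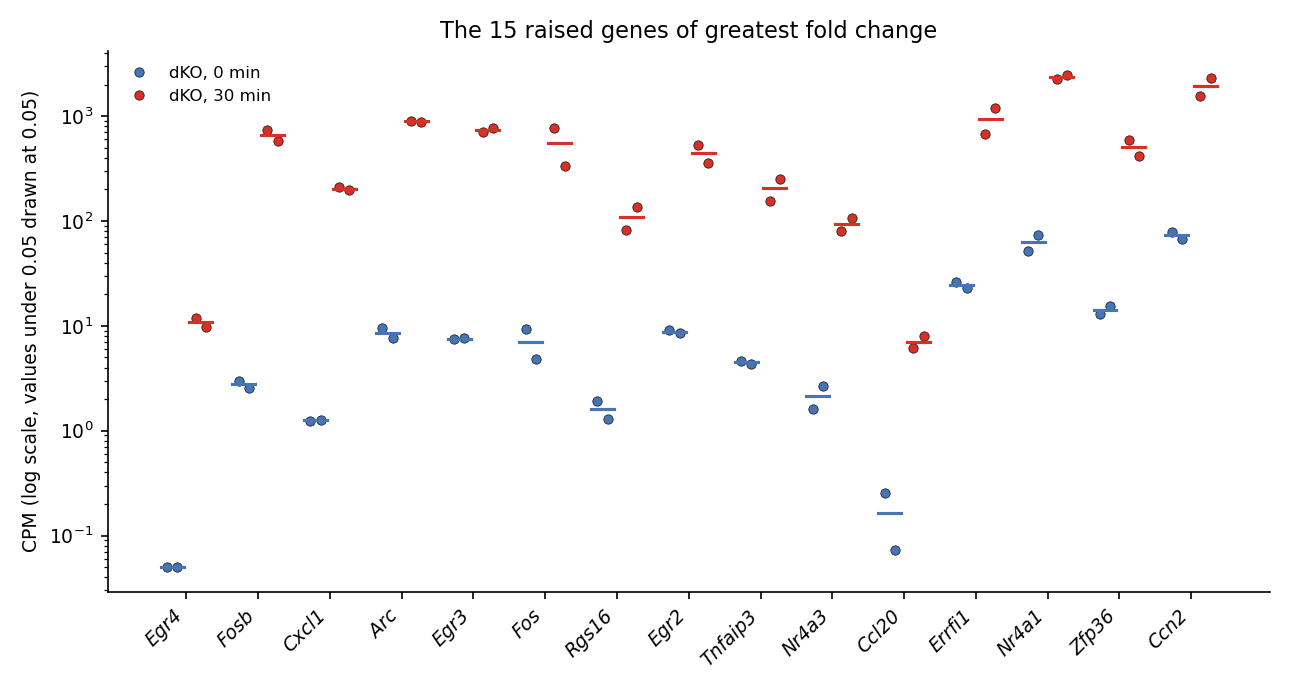
CPM on a log axis for the 15 raised protein-coding genes of greatest fold change with a mean of at least 5 CPM, with 1 point per dKO library (blue, 0 min; red, 30 min) and a line at the mean of 2. The choice of genes required groups that do not overlap. The groups of each gene lie far apart, while Fos, Errfi1, Rgs16 and Tnfaip3 show a visible gap between their replicates at 30 min. Values under 0.05 CPM, which here are those of Egr4 at 0 min, are drawn at 0.05.

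Other immediate-early genes formed the list with the greatest share of raised members, 32 of 36 (median 1.69), with 4 not called, though 15 and 14 rose without dKO 0 min replicate 1 and 2. Arc, an activity-regulated cytoskeletal protein studied mostly in neurons, rose from 9.52 and 7.59 CPM to 903 and 888 CPM (6.70 ± 0.13, adjusted p = 6.48e-07). Gadd45g, a growth arrest and stress-kinase regulator, rose from 24.8 and 24.2 CPM to 271 and 283 CPM (3.50 ± 0.05), one of the most even responses between replicates. Ier5 rose by 1.98 ± 0.07 and Tiparp, a mono-ADP-ribosyltransferase, by 1.65 ± 0.07. Myc and Ier2, named after their values were seen, were less even. Myc had 50.6 and 36.2 CPM at 0 min and 249.9 and 416 CPM at 30 min (2.94 ± 0.42, adjusted p = 0.0239), and its call was lost without dKO 0 min replicate 1 or 2 (adjusted p = 0.108 and 0.153), dKO 30 min replicate 2 (0.10), or WT 0 min replicate 1 or 2 (0.0633 and 0.0635). Ier2 had 38.2 and 19.6 CPM before and 420.4 and 217 CPM after (3.45 ± 0.65, adjusted p = 0.0479), and its call was lost without any 1 of the 8 libraries (adjusted p from 0.0648 to 0.225).

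Feedback inhibitors of the MAP kinase pathway were called in part. Of 18 tested dual-specificity phosphatases, Sprouty and Spred genes and Errfi1, 8 rose and 10 were not called (median 0.96). Without dKO 0 min replicate 1 or 2 or dKO 30 min replicate 2 the number was 3, 2 or 5. Errfi1, which encodes an inhibitor of the EGF receptor, had 26.4 and 22.8 CPM at 0 min and 678 and 1203 CPM at 30 min (5.25 ± 0.42, adjusted p = 0.00482), with the second library above the first. Dusp1, a phosphatase of p38, JNK and ERK, had 13.0 CPM in both libraries at 0 min and 239 and 141 CPM at 30 min (3.87 ± 0.40, adjusted p = 0.00929), with the order of the libraries turned round. Without dKO 0 min replicate 1 or 2 the calls on Errfi1 (adjusted p = 0.0521 and 0.0679) and Dusp1 (0.0824 and 0.0956) were lost. Dusp5, specific for ERK, rose from 7.55 and 6.51 CPM to 81.1 and 119.9 CPM (3.83 ± 0.24), and Dusp8 by 2.12 ± 0.19. Rgs16, a GTPase-activating protein for G protein α subunits, rose from 1.91 and 1.30 CPM to 81.9 and 137 CPM (6.08 ± 0.61, adjusted p = 0.00832), a call lost without dKO 0 min replicate 1 or 2 (adjusted p = 0.0747 and 0.0921). Its relative Rgs2 went the other way, as given further on.

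Actin and tropomyosin genes rose by small folds from high levels. Of 33 SRF and cytoskeletal targets, 18 rose and 15 were not called (median 0.77; 11 rose without dKO 0 min replicate 2), and no member had a negative log2 fold change, the lowest being 0.01. Actb rose from 2490 and 2351 CPM to 4288 and 4601 CPM (0.88 ± 0.05, adjusted p = 1.49e-05), Actg1 from 1778 and 1569 CPM to 3337 and 3558 CPM (1.04 ± 0.07), and the tropomyosin gene Tpm1 from 912 and 798 CPM to 1889 and 1852 CPM (1.13 ± 0.06). In each the libraries at 30 min lay clear of those at 0 min, as they did for every called gene. Acta2, smooth muscle actin, had 1756 and 1282 CPM at 0 min and 2850 and 2631 CPM at 30 min (0.85 ± 0.17, adjusted p = 0.0414), and lost its call without any library other than dKO 0 min replicate 1 (adjusted p from 0.0600 to 0.182, or a log2 fold change of 0.64 without dKO 0 min replicate 2). Srf itself, named after its values were seen, rose from 83.8 and 81.0 CPM to 281 and 340.4 CPM (1.91 ± 0.13).

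YAP-TEAD targets overlapped with the SRF list in Ccn1, Ccn2 and Ankrd1, and 7 of 20 rose with 13 not called (median 0.14). Without dKO 0 min replicate 1 or 2 the number was 4 or 3. Ccn1 and Ccn2 encode matricellular proteins of the CCN family. Ccn1 rose from 256 and 167 CPM to 3856 and 3242 CPM (4.07 ± 0.32), and Ccn2 from 78.9 and 66.8 CPM to 1560 and 2305 CPM (4.73 ± 0.35, adjusted p = 0.00342), the latter losing its call without dKO 0 min replicate 2 (adjusted p = 0.0553). Ankrd1, a nuclear ankyrin-repeat protein of muscle and wounds, rose from 39.3 and 39.1 CPM to 320.2 and 409 CPM (3.22 ± 0.17), and the kinase gene Nuak2 by 1.93 ± 0.21.

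Of the secreted inflammatory ligands, 19 of the 26 listed were tested and 11 rose (median 2.54), with 8 not called. Without dKO 0 min replicate 1 or 2 or dKO 30 min replicate 2 the number was 5, 6 or 7. Cxcl1, a neutrophil-attracting chemokine, had 1.24 and 1.26 CPM at 0 min and 209.8 and 196 CPM at 30 min (7.34 ± 0.09, adjusted p = 1.57e-10). Ccl2, which attracts monocytes, had 34.6 and 34.5 CPM before and 381 and 570.0 CPM after (3.78 ± 0.33, adjusted p = 0.00583). Its rise was far larger than the gap between its replicates, though the call was lost without dKO 0 min replicate 1 or 2 (adjusted p = 0.0598 and 0.0734). Its neighbour Ccl7 on chromosome 11 rose from 20.5 and 16.2 CPM to 195 and 242 CPM (3.57 ± 0.20), and Ccl20, a ligand of CCR6, from 0.255 and 0.0720 CPM to 6.10 and 8.0 CPM (5.35 ± 0.43). Tslp, a cytokine best known from epithelia, rose from 1.05 and 1.04 CPM to 6.26 and 6.01 CPM (2.54 ± 0.21, adjusted p = 0.000122), but without retained-intron transcripts it was not called (adjusted p = 0.549). Il6 was barely expressed: 1 count in the 2 libraries at 0 min against 17 at 30 min, a ratio of 20.5 (95% exact interval from 3.20 to 855, which covers counting error only). Its call (adjusted p = 0.0172) was lost without dKO 0 min replicate 1 (0.103), without dKO 30 min replicate 2 (0.0829) and in DESeq2 (0.122). Cxcl2, named after its values were seen, had 1 count before and 90 after (ratio 108, interval from 18.9 to 4320). The cytokine gene Lif, also named after its values were seen, had 11.1 and 9.29 CPM before and 56.5 and 108 CPM after (3.01 ± 0.49, adjusted p = 0.0314), and was not called without dKO 0 min replicate 1 or 2 (adjusted p = 0.155 and 0.188), dKO 30 min replicate 2 (0.0986), or WT 0 min replicate 1 or 2 (0.0804 and 0.0799).

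NF-kB subunit, feedback and adhesion genes rose beside the chemokines, 6 of 18 tested (median 0.76), with 12 not called. The 6 included the subunit gene Relb and the adhesion gene Icam1. The number called depended strongly on which library was left out. Nfkbia encodes IκBα, which holds NF-kB in the cytoplasm and is itself a target of NF-kB. It had 19.0 and 19.3 CPM at 0 min and 304 and 308 CPM at 30 min (4.0 ± 0.05, adjusted p = 1.57e-10), with replicates close together at both times. Tnfaip3, the ubiquitin-editing inhibitor A20, rose from 4.65 and 4.35 CPM to 156 and 254 CPM (5.51 ± 0.43, adjusted p = 0.00399), a call lost without dKO 0 min replicate 2 (adjusted p = 0.0605). Nfkbiz, a nuclear IκB protein, rose from 23.4 and 27.4 CPM to 183 and 181 CPM (2.84 ± 0.08). Birc3 passed the fold threshold narrowly (0.80 ± 0.12, adjusted p = 0.00580) and lost its call without dKO 0 min replicate 1 or 2 (adjusted p = 0.0550 and 0.0628) and, with a log2 fold change of 0.59, without dKO 30 min replicate 2.

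**Figure D3:**
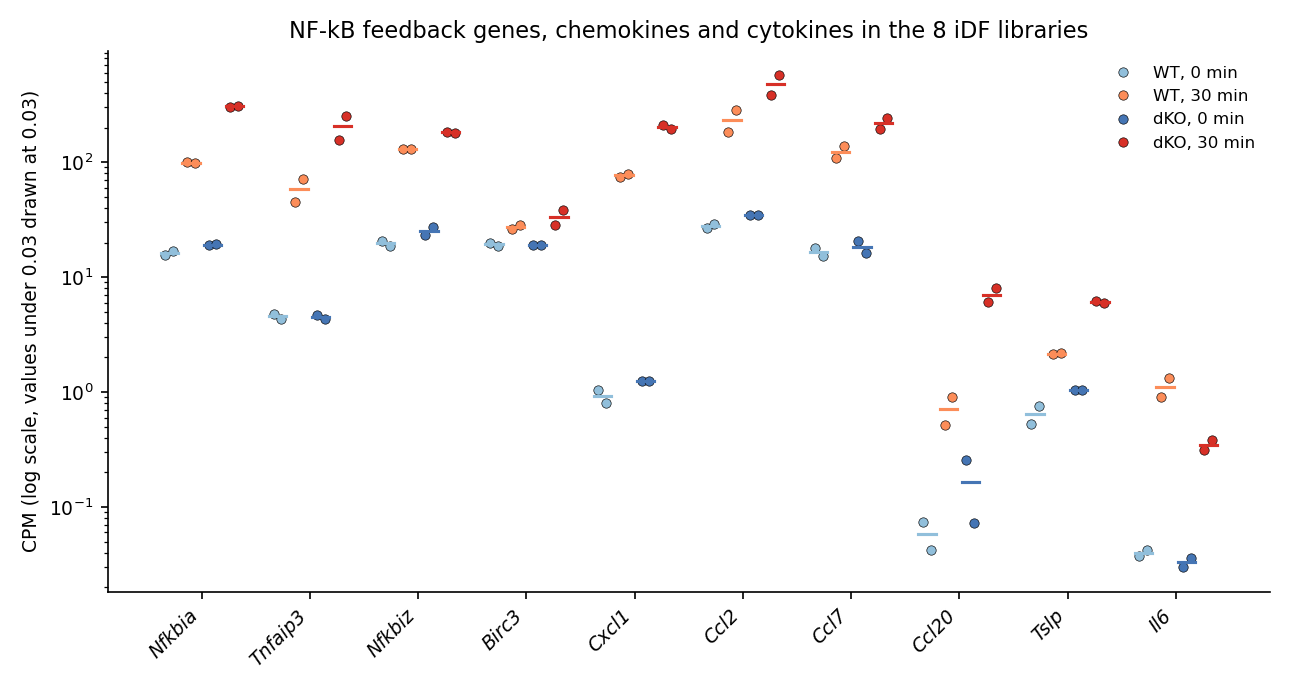
CPM on a log axis for 10 genes of NF-kB feedback and of the chemokines and cytokines in all 8 iDF libraries, with 1 point per library and a line at the mean of the 2 libraries in each group. The dKO libraries at 30 min (dark red) lie above the WT libraries at 30 min (orange) for every gene drawn except Il6, and Nfkbia is the gene whose 2 responses differed by the test. Cxcl2, which is not drawn, was lower in dKO (1.8 and 1.86 CPM) than in WT (2.01 and 3.44 CPM) at 30 min. Values under 0.03 CPM are drawn at 0.03.

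Nfkbia was the 1 protein-coding gene whose response differed between dKO and WT by the test of the difference. In WT it had 15.7 and 16.8 CPM at 0 min and 99.5 and 99.2 CPM at 30 min, a log2 fold change of 2.61, against 4.0 in dKO, and the difference of 1.38 ± 0.07 passed the test (adjusted p = 0.000112, with a range of 1.21e-25 to 0.00583 over 17 alternatives). The other call was Gm2446, an unprocessed pseudogene, at 0 CPM in both dKO libraries at 0 min, 5.32 and 4.36 CPM in dKO at 30 min and 3.33 to 4.81 CPM in the WT libraries. Reads that a pseudogene shares with similar genes can be split between them in different ways. This was not examined for Gm2446, so its value is uncertain. In all 2 of 15047 genes (0.0133%) changed more in dKO and 0 changed less (edgeR, 364 genes at an unadjusted p under 0.05; 7 genes in DESeq2 in either direction). Without dKO 30 min replicate 1, WT 0 min replicate 2, WT 30 min replicate 1 or WT 30 min replicate 2 the number called was 6, 5, 4 or 4, with both named genes among them each time. Other genes with wide gaps in fold did not pass, among them Tnfaip3 (5.51 against 3.68, adjusted p = 1.00), Cxcl1 (7.34 against 6.36, adjusted p = 0.852), Ccl2 (3.78 against 3.07, adjusted p = 1.00) and Ccl20 (5.35 against 3.47, adjusted p = 1.00). Gaps in the other direction did not pass either. Id3 rose by 1.94 in dKO against 3.18 in WT, and Gadd45g by 3.50 against 4.01 (adjusted p = 0.105). Such p-values do not show that the responses were alike. Of the 322 genes raised in dKO, 316 had a positive log2 fold change in WT, with a median of 1.26 against 1.57 in dKO, and 159 of the 171 lowered genes had a negative one, with a median of −0.74 against −1.07. Genes picked for passing a threshold in dKO have medians there that the choice itself raises.

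Regulators of mRNA decay rose in 4 of 15 members (median 0.43), with 11 not called. Zfp36, which encodes tristetraprolin, rose from 12.9 and 15.6 CPM to 592 and 418 CPM (5.15 ± 0.31, adjusted p = 0.00173). Btg2, an antiproliferative partner of the CCR4-NOT deadenylase, rose from 54.8 and 39.8 CPM to 710.3 and 644 CPM (3.84 ± 0.21), its relative Btg1 by 0.80 ± 0.05, and Zc3h12a, the endoribonuclease regnase-1, from 4.24 and 4.71 CPM to 19.9 and 24.5 CPM (2.31 ± 0.14).

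Genes of TGF-β, BMP, Notch and Wnt signalling rose in 6 of 21 members (median 0.25), with 15 not called, and in 3 without dKO 0 min replicate 2 or dKO 30 min replicate 2. Id4, a dominant-negative HLH factor, rose from 13.7 and 13.6 CPM to 34.2 and 37.0 CPM (1.38 ± 0.07) and the corepressor Tgif1 by 1.2 ± 0.07. Id3 had 61.7 and 62.4 CPM before and 192 and 285 CPM after (1.94 ± 0.28, adjusted p = 0.0226), and was not called without dKO 0 min replicate 1 or 2 (adjusted p = 0.131 and 0.150), dKO 30 min replicate 2 (0.0780), or WT 0 min replicate 1 or 2 (0.0606 and 0.0603). Of the growth factors, 3 of 26 tested rose (median 0.27; 5 without dKO 30 min replicate 1): Ereg, an EGF receptor ligand, from 1.37 and 1.15 CPM to 11.4 and 15.9 CPM (3.43 ± 0.27), Gdf15 by 1.95 ± 0.28 from about 1 CPM or less, and Tgfb3 from 176 and 155 CPM to 344 and 405 CPM (1.18 ± 0.10).

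Few matrix genes passed the test, 5 of 29 tested (median 0.07; 3 without dKO 0 min replicate 1 or 2). Thbs1, thrombospondin 1, had the highest CPM of all raised genes at 30 min: 3030 and 3176 CPM before serum and 8565 and 11429 CPM after (1.69 ± 0.21, adjusted p = 0.0131). It was not called without dKO 0 min replicate 1 or 2 (adjusted p = 0.0995 and 0.111). The urokinase Plau and its receptor Plaur rose by 1.57 ± 0.08 and 1.35 ± 0.16, and the metalloproteinase inhibitor Timp3 rose from 423 and 442 CPM to 729 and 822 CPM (0.84 ± 0.06). The collagen genes of the list were not among the calls. The greatest log2 fold change in the list, 3.63, belonged to a member that was not called.

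Other lists held 1 to 3 raised genes each. Ptgs2, cyclooxygenase 2, was the 1 called of 13 prostaglandin genes and rose from 8.19 and 6.30 CPM to 154 and 161 CPM (4.43 ± 0.19). In the clock list Nfil3 (1.79 ± 0.07), Bhlhe40 (1.5 ± 0.23) and Per1 (1.10 ± 0.22) rose, 3 of 18 (1 without dKO 0 min replicate 1). The calls on Bhlhe40 and Per1 were lost without dKO 0 min replicate 1 (adjusted p = 0.138 and 0.181) or 2 (0.153 and 0.145), that on Bhlhe40 also without WT 0 min replicate 1 or 2 (0.0617 and 0.0623), and that on Per1 also without dKO 30 min replicate 1 or 2 (0.0588 and 0.186). Among 19 heat shock and unfolded protein genes, the inducible HSP70 genes Hspa1b (1.92 ± 0.08) and Hspa1a (1.40 ± 0.08), near-identical copies whose reads can be split between them, rose with their cochaperone Dnajb1 (1.12 ± 0.05). Cholesterol synthesis gave 2 of 20, Insig1 (0.92 ± 0.04) among them, and 4 without dKO 0 min replicate 1. The p53 list gave Pmaip1 (2.05 ± 0.06) and Fas (0.86 ± 0.17) of 16 tested, the latter lost without dKO 0 min replicate 2 or dKO 30 min replicate 2 (adjusted p = 0.120 and 0.0881). Ccnl1 (1.07 ± 0.05) was the call of 20 elongation genes. Cish (1.40 ± 0.26), of 17 JAK-STAT genes, was lost without dKO 0 min replicate 1 or 2 (adjusted p = 0.140 and 0.127) and WT 0 min replicate 1 or 2 (0.0568 and 0.0565). The greatest log2 fold change among the JAK-STAT genes, 4.61, belonged to a member that was not called. Of 29 FOXO targets and quiescence genes 1 was called, Cited2, and it rose (1.55 ± 0.10).

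No member was called among 18 S phase genes (median 0.05), 13 mitotic genes (0.03), 20 ribosomal protein genes (0.02) or 21 interferon-stimulated genes (−0.05), by edgeR. Over all 25 lists 129 of 505 members tested rose and 1 fell, against 2.14% and 1.14% of all genes, and 193 of the raised and 170 of the lowered genes belonged to no list. Without dKO 0 min replicate 2, 72 members rose, and without dKO 30 min replicate 1, 5 fell. These lists were drawn up with earlier results of these data known, so the counts are not independent evidence of their direction.

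**Figure D4:**
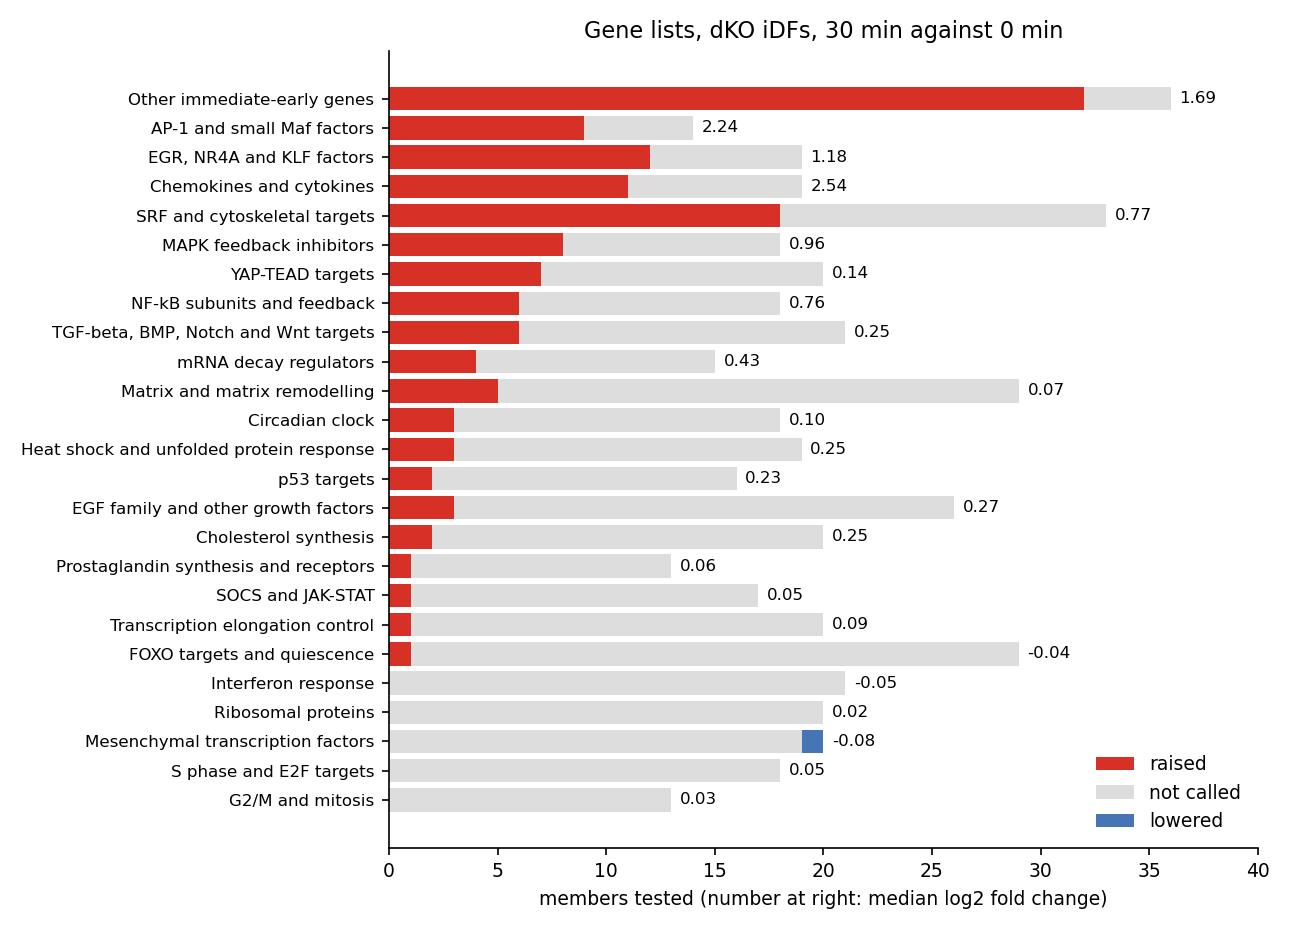
Bars give the number of tested members of each of the 25 gene lists that were raised (red), not called (grey) or lowered (blue) in dKO iDFs at 30 min against 0 min, in order of the share raised, and the number at the right of each bar is the median log2 fold change of its tested members. The immediate-early list is red for 32 of 36 members, whereas cell cycle, ribosomal protein and interferon lists hold no red.

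The lowered genes were of another kind. Of the 111 protein-coding genes lowered, 42 (37.8%) had symbols beginning with Zfp, Zkscan or Zscan and a number, a naming shared by C2H2 zinc-finger genes, many of which encode KRAB-domain repressors, against 381 of the 12875 protein-coding genes tested (2.96%). This group was chosen after the values were seen and was given no test. The 42 had a median log2 fold change of −1.0, and all 42 had a negative log2 fold change in WT as well. Of the 381 tested, 313 (82.2%) had a negative log2 fold change in dKO, with a median of −0.29, against 48.8% and a median of 0.00 for other protein-coding genes. The 5 that rose were Zfp131, Zfp281, Zfp36, Zfp568 and Zfp715. Symbols alone chose the group, so it includes Zfp36, the mRNA decay regulator given above. With a correction for transcript length, 16 of 64 lowered protein-coding genes (25%) had these symbols. Leaving out 1 library gave shares from 27.3% (without dKO 30 min replicate 2) to 41.1% (without either WT 30 min replicate). The number of genes lowered varied widely between these fits.

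Zfp60 had 17.3 and 18.4 CPM at 0 min and 7.12 and 5.42 CPM at 30 min (−1.5 ± 0.14, adjusted p = 0.000377). Zfp157 had 15.5 and 16.7 CPM before and 6.85 and 4.15 CPM after (−1.54 ± 0.21, adjusted p = 0.00480). Zfp87 fell from 11.5 and 13.0 CPM to 4.54 and 5.16 CPM (−1.33 ± 0.14). The groups of each lay clear of each other, which the rule that named these genes required. With the correction for transcript length neither Zfp157 (adjusted p = 0.0731) nor Zfp87 (adjusted p = 0.220) was called. The uncharacterised genes Gm10778 (−1.29 ± 0.18), Gm12258 (−1.24 ± 0.12) and A430033K04Rik (−1.16 ± 0.23) were also among the 15 of greatest fall, and A430033K04Rik was not called without dKO 0 min replicate 1 (adjusted p = 0.0757), dKO 0 min replicate 2 (0.0771) or dKO 30 min replicate 2 (0.0915).

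Regulators of signalling, metabolism and patterning made up most of the other named falls. Rgs2, a GTPase-activating protein for Gαq, had 20.8 and 24.4 CPM at 0 min and 7.28 and 4.65 CPM at 30 min (−1.91 ± 0.21, adjusted p = 0.00167), opposite in direction to Rgs16. Ppp1r3c, a glycogen-targeting subunit of protein phosphatase 1, had 7.90 and 7.23 CPM before and 2.11 and 0.719 CPM after (−2.40 ± 0.45, adjusted p = 0.0271). Its call was lost without dKO 0 min replicate 1 or 2 (adjusted p = 0.124 and 0.126) or WT 0 min replicate 1 or 2 (0.0655 and 0.0644). Mab21l1, a developmental gene of the Mab-21 family, had 7.74 and 8.57 CPM before and 1.53 and 1.57 CPM after (−2.40 ± 0.24, adjusted p = 0.000539). In WT it was at 0 to 0.0427 CPM in all 4 libraries, so that no response there could be read. The homeobox gene Hoxa9 fell from 19.5 and 24.3 CPM to 8.49 and 7.53 CPM (−1.45 ± 0.14, adjusted p = 0.000351). Dmrt2, a DM-domain factor of somites, fell by 1.10 on the log2 scale (adjusted p = 0.0266), and was not called without dKO 0 min replicate 1 (adjusted p = 0.0550), dKO 0 min replicate 2 (0.173), dKO 30 min replicate 2 (0.147), or WT 0 min replicate 1 or 2 (0.0624 and 0.0619). Osr1, a zinc-finger factor of connective tissue, was the 1 call among 20 tested mesenchymal transcription factors and fell from 111 and 132 CPM to 65.5 and 56.4 CPM (−1.0 ± 0.12, adjusted p = 0.00388). The remaining named falls were the dioxygenase gene Alkbh4 (−1.39 ± 0.16), the mitochondrial prolyl-tRNA synthetase gene Pars2 (−1.10 ± 0.18), Tigd5 (−1.17 ± 0.20), a transposon-derived gene that lost its call without dKO 0 min replicate 2 (adjusted p = 0.0504), and 9930012K11Rik (−1.37 ± 0.18).

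**Figure D5:**
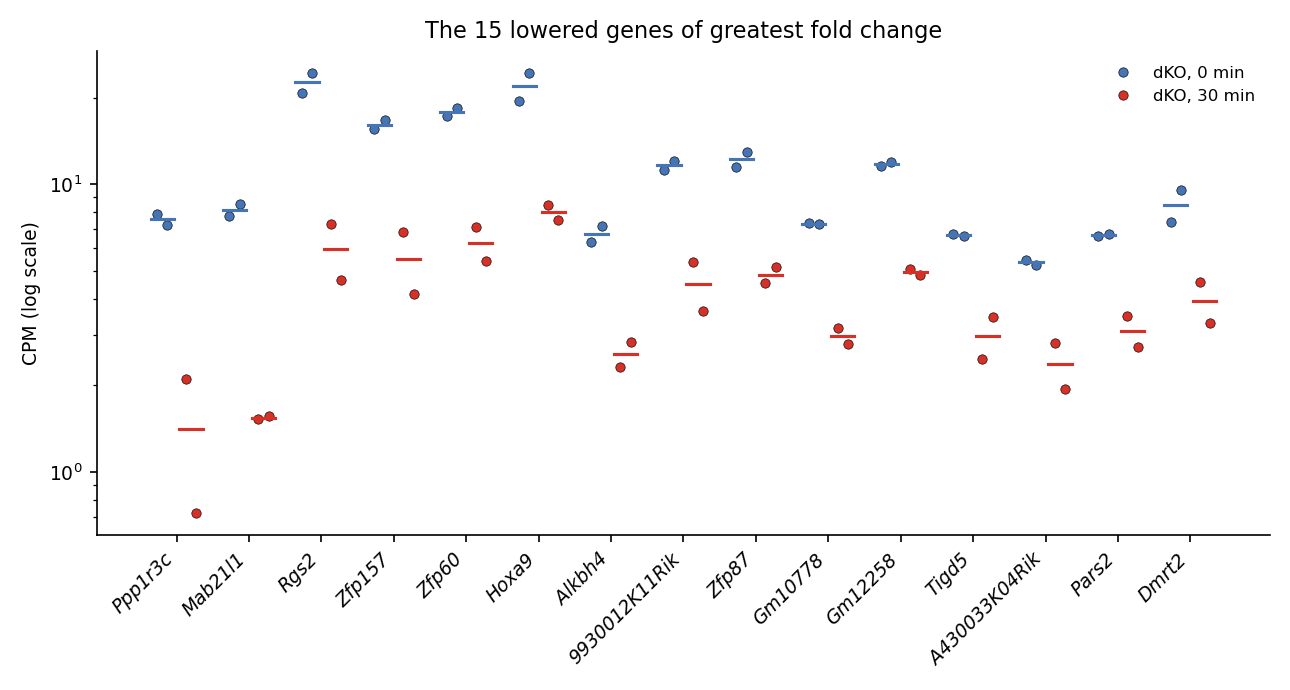
CPM on a log axis for the 15 lowered protein-coding genes of greatest fold change with a mean of at least 5 CPM at 0 min, with 1 point per dKO library (blue, 0 min; red, 30 min) and a line at the mean of 2. The libraries at 30 min lie below those at 0 min in each gene, as the choice of genes required. Ppp1r3c has the widest gap between its libraries at 30 min, 2.11 against 0.719 CPM.

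Raised and lowered genes differed from the rest in gene structure and level, given here as medians with no test. Raised protein-coding genes spanned 12 kb and had 5 exons in the longest transcript, lowered ones 8.72 kb and 4 exons, and all those tested 24.6 kb and 8 exons. Genes without an intron made up 5.88% of the raised (16 genes, among them Jun, Ier2, Ier5 and the HSP70 genes), 10.8% of the lowered (12 genes) and 2.19% of all tested. Before serum the median level was 21.3 CPM for raised, 6.57 CPM for lowered and 29.1 CPM for all protein-coding genes tested, and a CPM is not corrected for length. Genes annotated as TEC, transcripts that still await experimental proof, were 27 of the raised (8.39%) and 15 of the lowered (8.77%), against 3.34% of all tested. Of the 50 raised genes that are not protein-coding, 14 (28.0%) overlapped or lay within 10 kb of a raised protein-coding gene, 11 of them on the same strand, against 55 of the 2172 such genes tested (2.53%). Reads from overlapping genes can be assigned to either.

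The median share of retained-intron transcripts was higher after serum in the raised genes and lower over all genes. The measure is the share of a gene's counts that Salmon placed on transcripts annotated as retaining an intron, in protein-coding genes with such a transcript and a mean of at least 50 counts in each dKO group. The gene totals that chose the members include these counts, so the measure is not independent of the choice and is given as a description. Over 98 raised genes the median share was 2.56% and 2.51% at 0 min and 4.10% and 2.88% at 30 min, while over all 6821 genes it was 3.62% and 3.49% before and 2.60% and 2.70% after. The share was higher at 30 min in 80 of the 98 raised genes (81.6%) and in 2060 of the 6821 (30.2%), and the groups lay apart in that direction in 52 of the 98 (53.1%) against 10.5% of all. Over 28 lowered genes the medians were 7.53% and 6.43% before and 2.33% and 6.15% after, too uneven to be read. In 18 of the 98 raised genes the share was lower at 30 min, against 4571 of all 6821 genes. The groups lay apart in that direction in 8 of the 98, against 2671 of the 6821. Fosb had 6.70% and 8.85% before and 2.76% and 1.29% after, and Dusp1 6.83% and 8.89% before and 4.02% and 3.90% after. Some genes with a higher share follow. In Ccl2 the share was 3.86% and 6.94% before and 18.3% and 10.6% after. Tagln, transgelin, which like Zyx and Sat1 was named after its values were seen, had 2.60% and 2.26% before and 16.6% and 12.7% after, zyxin (Zyx) had 6.32% and 3.96% before and 16.1% and 12.5% after, and the polyamine acetyltransferase gene Sat1 43.3% and 44.7% before and 55.7% and 54.8% after. Without retained-intron transcripts 289 genes were called raised, and Sat1 (log2 fold change 0.44 in place of 0.78) and Zyx (0.68 in place of 0.83) were no longer among them. The rise of Zyx was also not called without dKO 0 min replicate 1 or 2 (adjusted p = 0.114 for both) or dKO 30 min replicate 2 (0.0765), and that of Tagln (1.2) without dKO 30 min replicate 1 or 2 (0.0570 and 0.0955). The placing of short single reads on transcripts is an estimate.

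The 2 libraries at 30 min differed in which early genes were higher. Replicate 1 was higher for Fos, Egr1, Ier2, Dusp1 and Zfp36, and replicate 2 for Errfi1, Myc, Fosl1, Lif, Tnfaip3, Rgs16 and Thbs1, with values given above for all but Fosl1 (64.1 and 122 CPM). Of the 322 raised genes 100 were higher in replicate 1 and 222 in replicate 2, and for 73 (22.7%) the libraries lay more than 0.5 apart on the log2 scale, against 10.8% of all genes tested. The WT libraries at 30 min had the same replicate number on top for 259 of the 322 genes (80.4%), against 62.0% of all tested. Nothing in the labels says that a number marks a shared day, and no cause of these differences was tested.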

How the data were processed

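RNA-seq libraries (NEXTFLEX poly(A) selection and Rapid Directional kit, single reads on a NextSeq 500) were quantified by the authors with Salmon 1.2.1 against Gencode M25 (GRCm38.p6), and the estimated counts and TPM of each library were deposited per transcript. TPM as deposited by the authors is scaled for transcript length and to the same total in each library, and was used here for levels of marker genes. Estimated counts were summed per gene with the Gencode M21 annotation (99.15% of transcripts matched, and 0.31% to 0.34% of counts had no gene) and rounded to whole numbers. Multi-mapping reads are divided among transcripts by Salmon, so near-identical genes are uncertain.

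The 8 iDF libraries in 4 groups were fitted together by edgeR's quasi-likelihood test (edgeR 4.0.16, R 4.3.3) with TMM factors and a minimum count of 10, and p-values were adjusted by Benjamini-Hochberg over 15047 genes. A call needs an adjusted p under 0.05 and a log2 fold change beyond 0.75. CPM are scaled by TMM. DESeq2 (1.42.0, Benjamini-Hochberg adjusted) was an alternative. The study used DESeq2 with independent hypothesis weighting, which was not run here. On counts simulated for these 4 groups, edgeR recovered 71% of genes changed by 1 and 84% of those changed by 2 on the log2 scale. It made 7 false calls with 14772 genes tested, the changed ones included. The labels do not say that the libraries came from separate cultures, so p-values measure only the spread between these samples, which may be technical.

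The members and gene lists were chosen with earlier results of these data known. Named genes were H2afy and H2afy2, the 15 raised and 15 lowered protein-coding genes of greatest fold change with a mean of at least 5 CPM in the higher group and no overlap, up to 4 called members of each list with the smallest p, up to 8 genes called in the difference from WT, Ccl2, Cxcl1 and Il6, and the 5 raised genes of highest CPM at 30 min. A few genes that this rule names are not reported here. Alternatives were another tool or scaling, other filters, a length correction, other thresholds, a replicate block and leaving out each library.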

Additional observations from a re-analysis of the deposited data

Results flagged for a closer look

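A pair of genes had a serum response that differed between dKO and WT iDFs by the test of the difference itself (edgeR's quasi-likelihood test). For Nfkbia the log2 fold change at 30 min was 1.38 greater in dKO than in WT (adjusted p = 0.000112), with 304 and 308 CPM in the dKO and 99.5 and 99.2 CPM in the WT libraries at 30 min, and the call held under all 17 alternatives. For the pseudogene Gm2446 the fitted difference was 10.16 (adjusted p = 0.00262). This value depends on the prior count, because both dKO libraries at 0 min held 0 counts. It may also depend on how reads were divided between the pseudogene and any similar genes, which was not examined.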

How the results depend on the processing

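No named gene called changed direction under any alternative, and 53 of 95 kept their call under 18 alternatives, not counting the 2 that move the fold threshold. H2afy, not called (log2 fold change 0.04), was at −0.01 without dKO 0 min replicate 2. The 322 raised genes became 128 with glmTreat and 894 with no threshold on the fold change, and 174 to 335 when 1 library was left out. The 171 lowered genes became 98 in DESeq2, 81 with the transcript length offset, 110 with only the 4 dKO libraries, 11 with glmTreat, 558 with no fold threshold and 109 above a log2 fold change of 1, and 48 to 229 when 1 library was left out. The 2 genes that differed between dKO and WT became 7 in DESeq2, 7 with no low-count filter, 1 among protein-coding genes alone and 2 to 6 when 1 library was left out. With the replicate number as a block, 371 genes rose, 217 fell and 6 differed, and deviations of same-numbered libraries correlated by 0.018 to 0.132, above 0.1 in 4 of 6 pairs of groups. The main fit did not pair the libraries by number, because nothing in the labels says that a number marks a shared day. The absence of such a label does not show that they were unpaired. The correlations ran over all 15047 genes, and all 6 were positive. Among raised genes, the WT libraries after serum shared the higher replicate number with dKO for 80.4%, against 62.0% of all tested. Pairing in the raised genes alone was not tested. Spread shared by same-numbered libraries would stay in the standard errors of the main fit. With the replicate block, all 95 named calls were kept. The change in the median retained-intron share was 4.92 percentage points with TPM in place of 0.96 for raised genes, −2.09 in place of −0.90 for all genes, and −9.43 in place of −2.74 for the 2 lowered genes with at least 200 counts. The cause of these shifts was not tested, and a comparison of promoter windows was not run, because fewer than 80% of genes had a promoter in the table. With 2 libraries a group, small changes of low genes were not detectable.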
